A study of Arabidopsis thaliana with 7 samples.

Results

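The genes that write and erase DNA methylation in Arabidopsis thaliana were followed in the transcriptome of wild-type seedlings. They were 10 of the 33602 genes in the count table, taken by identifier, with no threshold on a measured value, though earlier results of these data were known when they were chosen. 5 encode DNA methyltransferases (MET1, CMT2, CMT3, DRM1 and DRM2), 4 encode 5-methylcytosine DNA glycosylases (ROS1, DME, DML2 and DML3), and DDM1 encodes a chromatin remodeller, which is neither. All 10 names were among the symbols and synonyms of the RefSeq gene table, where DDM1 stands as CHR1 and ROS1 as DML1. The plants were wild-type Col-0, the standard laboratory accession, sampled as whole seedlings after 14 days on MS plates in long days (16 h light, 8 h dark) at a constant 22 °C. RNA was sequenced from 3 replicate samples, and the 4 chromatin libraries of the series (H3K4me1, H3K4me2, H3K4me3 and input) were not analysed here. There was 1 RNA group, so no contrast between conditions could be drawn. Nothing in the labels tells if the replicates were grown apart, so the p-values below rest on a spread between samples that may be technical.

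Plants methylate cytosine in the CG, CHG and CHH contexts, where H is any base but G. MET1 copies CG methylation onto new strands after replication. CMT3 and CMT2 are chromomethylases, drawn to chromatin that carries methylated H3K9, with CMT3 acting mainly on CHG and CMT2 mainly on CHH sites in heterochromatin. DRM2 and its relative DRM1 place methylation guided by small RNAs, and DDM1 opens nucleosomal heterochromatin to these enzymes. Removal runs by base excision repair: ROS1, DME, DML2 and DML3 cut out the methylated base and repair enzymes fill the gap. ROS1 is best known for vegetative tissue and DME for the central cell of the female gametophyte, where it acts on imprinted genes.

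The libraries held 30946664, 18493022 and 20764970 counts assigned to genes in replicates 1, 2 and 3. Levels are in CPM (each count divided by its library's total, scaled with edgeR's TMM factors and expressed at a common depth), and each mean is given with its SD over 3 libraries. CPM rises with transcript length and no transcript lengths were used here, so an order in CPM is an order of counts and not of transcript number. In seedling RNA, fewer cells of a type and less RNA per cell cannot be told apart. A few markers were set beside the whole-seedling label. A mean of 1 CPM was reached by 3 of 3 leaf photosynthesis genes and 2 of 3 root genes, against 56.3% of all genes. It was reached by 1 of 3 floral organ genes, 0 of 2 pollen genes and 0 of 4 seed and endosperm genes. The root gene WOX5 was under that level, at 0.408 CPM, and the floral gene SEP3 was over it, at 2.65 CPM. Of the pollen, seed and endosperm genes, LEC1, FIS2 and ANX2 had no count. ANX1 and LEC2 had 4 and 2 counts in all, and AGL62 had 15, 11 and 14 in replicates 1, 2 and 3. Of all counts, rRNA made up 1.20%, 1.39% and 2.97% in replicates 1, 2 and 3, and its part in the results was not tested beyond the scaling without rRNA given in the closing section.

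Of the 10 genes, 9 reached a mean of at least 1 CPM, a level that 56.3% of all genes reached. A mean of at least 10 CPM was seen for 8 of the 10, against 37.7% of all genes. At 100 CPM or more there was none of the 10, against 5.90% of all genes. The genes at 1 CPM or more among them had a median of 29.9 CPM, beside 19.1 CPM over the 18915 genes of the table at that level. DML3 lay at 1 to under 10 CPM, and DRM1 alone lay under 1 CPM. All 10 encode proteins, while all genes of the table include other kinds and 279 organelle genes with no count. Among protein-coding genes at 1 CPM or more, the share with a lower mean was 88.0% for DME, 84.3% for ROS1 and 75.1% for MET1. It was 64.2% for DML2, 61.7% for CMT2 and 53.2% for CMT3, and 44.9%, 33.4% and 16.7% for DRM2, DDM1 and DML3.

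Among the methyltransferases MET1 (AT5G49160, chromosome 5), the CG maintenance enzyme, had the most counts. It stood at 47.6, 49.4 and 48.4 CPM in replicates 1, 2 and 3, a mean of 48.5 ± 0.933 CPM (SD, n = 3). The libraries were nearly level, with the highest 1.04 times the lowest. MET1 took 41.4 ± 0.565% of the counts of the 5 methyltransferase genes.

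The chromomethylases came next. CMT2 (AT4G19020, chromosome 4), of CHH methylation, stood at 29.9, 30.3 and 29.6 CPM, a mean of 29.9 ± 0.344 CPM. CMT3 (AT1G69770, chromosome 1), of CHG methylation, stood at 21.0, 22.8 and 23.1 CPM, a mean of 22.3 ± 1.131 CPM. The lowest CMT2 library was above the highest CMT3 library, so the ranges did not overlap. In counts CMT3 was at 0.745 times CMT2, with log2 ratios of -0.51, -0.41 and -0.36 in replicates 1 to 3 and a mean of -0.42 ± 0.08. An exact two-sided sign-flip permutation test over 3 libraries cannot give a p under 0.25, and this ratio gave that value (0.25 adjusted over the 3 pairs tested).

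**Figure D1:**
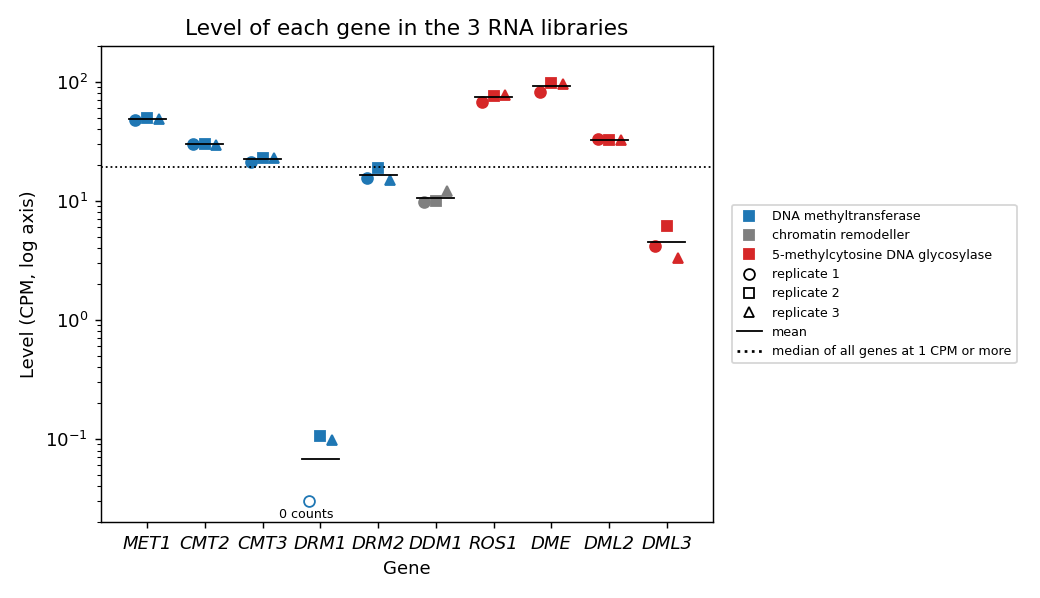
Level of the 10 genes in CPM (log axis) in replicates 1 to 3 (circle, square, triangle), with the mean as a line and the median of the 18915 genes at 1 CPM or more (19.1 CPM) dotted. DME and ROS1 stand highest, and DRM1, with its replicate 1 drawn open because it had 0 counts, stands far under the rest.

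The DRM pair was the most unequal. DRM2 (AT5G14620, chromosome 5), the main enzyme of RNA-directed methylation, had 480, 351 and 307 counts, which is 15.5, 18.8 and 14.95 CPM and a mean of 16.4 ± 2.06 CPM. Replicate 2 was the high library. DRM1 (AT5G15380, chromosome 5) had no count in replicate 1 and 2 counts each in replicates 2 and 3, which is less than the 3 counts taken here as the detection floor.

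The empty DRM1 library allows up to 0.0970 CPM. Summed over the libraries, the 4 counts of DRM1 come to 0.0570 CPM with an exact Poisson 95% interval of 0.0155 to 0.146 CPM, which covers counting error only. Counts under 20 were even in 84.5 to 86.2% of cases in this table, and if these 4 counts were 2 pairs the interval would run from 0.00690 to 0.206 CPM, still far under 1 CPM. DRM2 had 1138 counts in all, 284.5 times those of DRM1, with an exact binomial 95% interval of 110.8 to 1046 for that ratio (78.4 to 2355 on halved counts). These intervals, too, cover counting error only and leave out the spread between libraries. Leaving out replicate 1, the library with no DRM1 count, brought the ratio to 164.5, and leaving out replicate 2 or 3 brought it to 393.5 or 415.5. The DRM genes are close relatives, and how the authors' counting treated reads that match both is not given in the sources at hand.

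DDM1 (AT5G66750, chromosome 5), the remodeller, stood at 9.83, 9.995 and 12.1 CPM, a mean of 10.6 ± 1.28 CPM. Replicate 3 was the high library. DDM1 was the only one of the 9 genes at 1 CPM or more to change class between libraries, from 1 to under 10 CPM in replicates 1 and 2 to 10 to under 100 CPM in replicate 3. The other 8 kept 1 class, as did 91.6% of all genes at that level. MET1 had 4.57 times the counts of DDM1, with a mean log2 ratio of 2.19 ± 0.17 that was positive in 3 of 3 libraries (exact sign-flip permutation p = 0.25, the smallest possible).

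The glycosylase genes held the highest CPM of the 10. DME (AT5G04560, chromosome 5) stood at 81.6, 97.3 and 95.8 CPM, a mean of 91.6 ± 8.67 CPM, and 2223 genes of the table had a higher mean. ROS1 (AT2G36490, chromosome 2) stood at 67.6, 76.5 and 77.3 CPM, a mean of 73.8 ± 5.39 CPM, with 2905 genes higher. In both genes replicate 1 was the low library and the other two were close to each other.

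ROS1 had 0.807 times the counts of DME, with log2 ratios of -0.27, -0.35 and -0.31 in replicates 1 to 3. That ratio was negative in 3 of 3 libraries (exact sign-flip permutation p = 0.25). Whether the DME counts came from few cells or many cannot be read from whole seedlings.

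DML2 (AT3G10010, chromosome 3) stood at 33.2, 32.7 and 32.2 CPM, a mean of 32.7 ± 0.4997 CPM, and its libraries were nearly equal. DML3 (AT4G34060, chromosome 4) was the lowest glycosylase gene, with 129, 114 and 68 counts, which is 4.17, 6.09 and 3.31 CPM and a mean of 4.52 ± 1.42 CPM. Its highest library was 1.84 times its lowest. Of all glycosylase counts DME took 45.1 ± 1.22%, ROS1 36.4 ± 0.560%, DML2 16.2 ± 1.38% and DML3 2.23 ± 0.639%.

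Summed over each class, the 4 glycosylase genes reached 186.5, 212.6 and 208.6 CPM, a mean of 202.6 ± 14.0 CPM. The 5 methyltransferase genes reached 114.0, 121.4 and 116.1 CPM, a mean of 117.2 ± 3.79 CPM. In counts the glycosylase sum was 1.64, 1.75 and 1.80 times the methyltransferase sum in replicates 1, 2 and 3. The mean log2 ratio was 0.79 ± 0.07 and was positive in 3 of 3 libraries (exact sign-flip permutation p = 0.25, the smallest possible). These sums are not corrected for length, and no statement about enzyme amounts follows from them.

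The CPM order of the 10 genes was DME, ROS1, MET1, DML2, CMT2, CMT3, DRM2, DDM1, DML3 and DRM1. It was the same in each of the 3 libraries, and no range overlapped that of its neighbour in the order. The closest neighbours were DML2 and CMT2, whose means differed by 1.09 times and whose nearest libraries were 32.2 and 30.3 CPM. The widest step, apart from that to DRM1, was between DDM1 and DML3, at 2.35 times.

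The 9 genes at 1 CPM or more differed in how closely their libraries agreed, as far as 3 libraries can tell. CMT2, DML2 and MET1 had coefficients of variation of 1.15%, 1.53% and 1.92% over the libraries, each under the 3.87%, 3.71% and 3.04% that counting error alone would give. CMT3 followed at 5.07%, close to its counting error of 4.47%. ROS1, DME, DDM1, DRM2 and DML3 had 7.30%, 9.47%, 12.0%, 12.5% and 31.5%, all above their counting error of 2.45%, 2.20%, 6.49%, 5.22% and 10.2%. These counting errors take each count as independent, and would be larger if the counts came in pairs. Among the 500 genes nearest in level, 1.80% had a smaller coefficient than CMT2, 4.40% than DML2 and 8.40% than MET1. The same share was 96.8% for DME and 98.0% for DML3.

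**Figure D2:**
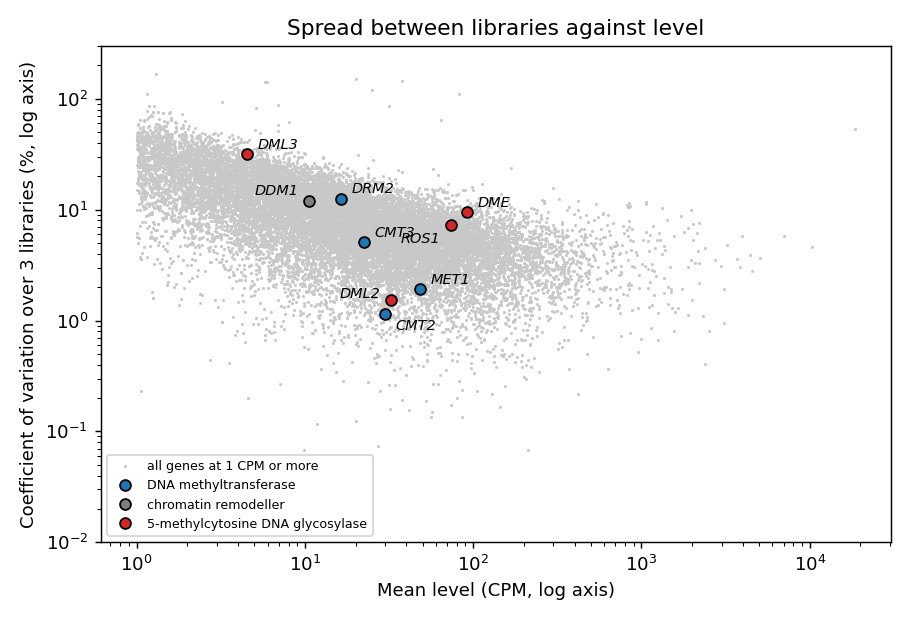
Coefficient of variation over the 3 libraries (%, log axis) against mean CPM (log axis) for the 18915 genes at 1 CPM or more (grey) and for 9 of the 10 genes (coloured by class). CMT2, DML2 and MET1 lie low in the cloud at 1.15% to 1.92%, and DME at 9.47% and DML3 at 31.5% lie near its upper edge.

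4 of the 9 genes varied beyond counting error, against 32.8% of the 18915 genes tested (edgeR goodness-of-fit test with the dispersion at 0, Benjamini-Hochberg adjustment over all genes, threshold 0.05). They were DME (adjusted p = 1.86e-08), ROS1 (adjusted p = 0.000385), DML3 (adjusted p = 0.00161) and DRM2 (adjusted p = 0.0245). DDM1 had an adjusted p of 0.0864 in this edgeR test, and CMT3, MET1, DML2 and CMT2 had 0.34, 0.74, 0.87 and 0.95. On halved counts, which allow for the even low counts of the table, DME alone passed (adjusted p = 0.000961), against 6.36% of all genes, and ROS1, DML3 and DRM2 had adjusted p of 0.0710, 0.121 and 0.308. Single libraries carried these calls: without replicate 1 DME and ROS1 had adjusted p of 0.863 and 0.829, and without replicate 2 DML3 and DRM2 had 0.276 and 0.770.

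None of the 9 varied beyond genes of its own level, a call made for 28 of the 18915 genes, or 0.148% (edgeR goodness-of-fit test with the trended dispersion). Their adjusted p was 0.9999 in each case. Before adjustment 1 of the 9, DML3, was under 0.05, as were 4.61% of all genes tested. With the common dispersion in place of the trend, 0 of the 9 passed as well.

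Replicate 1 lay under the mean of the other two in 7 of the 9 genes, against 48.6% of all genes at 1 CPM or more. The log2 difference was -0.24 for DME, -0.19 for ROS1, -0.16 for DDM1, -0.13 for CMT3, -0.11 for each of DRM2 and DML3, and -0.04 for MET1. CMT2 and DML2 were at 0.00 and 0.03. Replicate 2 lay under the others in 1 of the 9, DDM1, against 49.1% of all genes, and replicate 3 in 5 of the 9, against 50.5%. The median difference of the 9 genes was -0.11, 0.05 and 0.00 in replicates 1, 2 and 3, beside medians within 0.01 of 0 over all genes. Between single genes at 1 CPM or more, the SD of this difference was 0.22, 0.24 and 0.25 in replicates 1, 2 and 3. Replicate 1 was also the deepest library, and the part of depth in this was not tested.

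**Figure D3:**
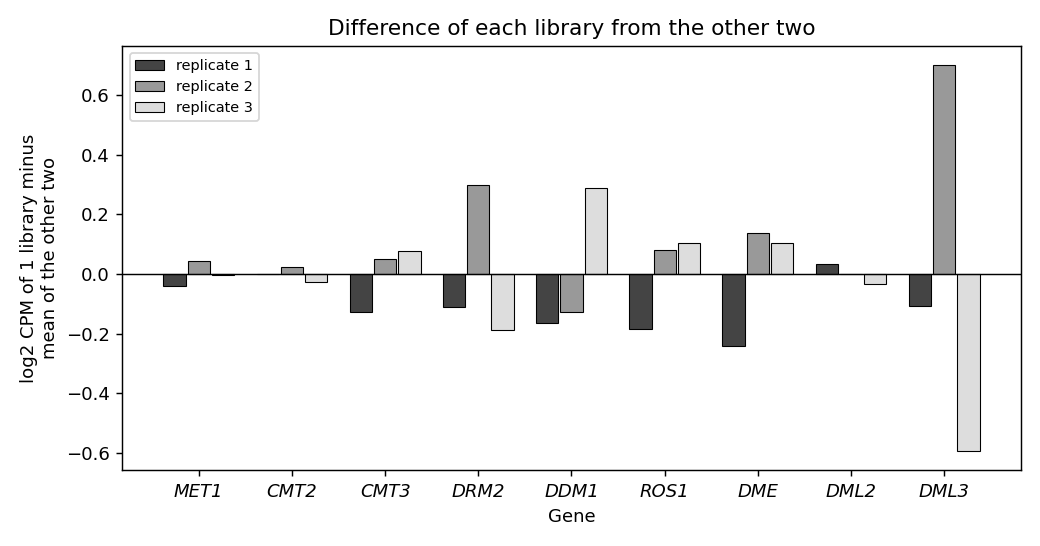
Difference in log2 CPM between each library and the mean of the remaining libraries, with a prior count of 2, for the 9 genes at 1 CPM or more (bars for replicates 1, 2 and 3). Replicate 1 is under 0 for 7 genes, and DML3 has the widest bars, at 0.70 in replicate 2 and -0.59 in replicate 3.

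Relatives and partners of these enzymes were described from 5 lists. The listed genes all encode proteins, while the share over all genes of the table includes other kinds. Of 6 relatives of the methyltransferases, 3 reached 1 CPM, near the 56.3% of all genes that did. Median levels were 26.1 CPM for the 10 genes, 1.85 CPM for these relatives and 2.95 CPM over all genes of the table. DRM3 (AT3G17310), a relative of DRM2 without catalytic activity that takes part in RNA-directed methylation, stood at 26.7 ± 2.78 CPM, with libraries at 25.6, 24.6 and 29.9 CPM. DNMT2 (AT5G25480), which methylates tRNA, stood at 5.21 ± 1.01 CPM. AT4G08990 and MEE57 (AT4G13610) had no count in any library.

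Of 10 partners in maintenance, 7 reached 1 CPM, against 56.3% of all genes, with a list median of 10.1 CPM. HOG1 (AT4G13940), the S-adenosylhomocysteine hydrolase that clears the by-product of methylation, was the highest at 1154 ± 32.7 CPM. IBM1 (AT3G07610), a histone demethylase, stood at 30.5 ± 1.81 CPM. It keeps CHG methylation out of genes, so it was listed here though it acts against methylation there. The lowest were VIM4, with 2 counts in each library, and VIM5, with 0, 4 and 4 counts. VIM1 (AT1G57820), which binds hemimethylated CG sites and works with MET1, stood at 18.2 ± 1.64 CPM and is named outside the rule, after its value was seen. The VIM genes are similar copies, so the split of reads among them is uncertain.

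All 14 partners in demethylation reached 1 CPM, against 56.3% of all genes, with a list median of 14.7 CPM. LIG1 (AT1G08130), the DNA ligase that seals the repaired strand, and ROS3 (AT5G58130), an RNA-binding protein needed by ROS1, were the highest at 44.1 ± 2.27 and 43.3 ± 1.90 CPM. IDM2 (AT1G54840), a partner in guiding ROS1 to its sites, stood at 1.47 ± 0.265 CPM and AT1G20870 at 2.93 ± 0.576 CPM, the lowest of the list.

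All 8 genes of DNA replication reached 1 CPM as well, against 56.3% of all genes, with a list median of 17.9 CPM. MCM7 (AT4G02060) and MCM2 (AT1G44900), of the replicative helicase, were the highest at 23.1 ± 0.884 and 20.4 ± 2.75 CPM, and MCM6 at 12.3 ± 0.859 CPM and PCNA1 (AT1G07370), a sliding clamp gene, at 7.96 ± 0.869 CPM the lowest. In none of these lists did a gene vary beyond genes of its own level. Beyond counting error, 3 of 3 relatives, 2 of 7 maintenance partners, 2 of 14 demethylation partners and 2 of 8 replication genes did, against the 32.8% of all genes given above. The median log2 difference of replicate 1 from the other libraries was -0.11 for the 9 methylation genes. It was -0.08 for each of the relatives, the maintenance partners and the demethylation partners, and -0.04 for the replication genes. In the same order, the medians of replicate 2 were 0.05, -0.17, -0.11, 0.13 and 0.03. Those of replicate 3 were -0.003, 0.25, 0.18, 0.08 and -0.01. Replicate 1 lay under the others in 7 of the 9 methylation genes, 2 of 3 relatives and 6 of 7 maintenance partners. It did so in 9 of 14 demethylation partners and 5 of 8 replication genes, against 48.6% of all genes. In the same order, replicate 2 did so in 1 of 9, 2 of 3, 5 of 7, 3 of 14 and 3 of 8, against 49.1%. For replicate 3 these were 5 of 9, 0 of 3, 1 of 7, 4 of 14 and 4 of 8, against 50.5%.

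Genes known to respond to DNA methylation or to its removal were low, and 1 of 8 reached 1 CPM, against 56.3% of all genes. That was EPF2 (AT1G34245), a stomatal patterning gene known to need ROS1, at 1.06 ± 0.121 CPM. QQS (AT3G30720), whose level is known to differ with methylation of its upstream repeats, stood at 0.970 ± 0.126 CPM. SDC (AT2G17690), known to be silenced by DRM2 and CMT3, had 2, 2 and 0 counts. FIS2 (AT2G35670), which DME is known to activate in the central cell, had no count in any library, and the list median was 0.170 CPM. FIS2 is also among the seed and endosperm markers above. The list joins genes silenced by methylation, such as SDC, genes that need its removal, such as EPF2, and genes of the central cell or endosperm. Its low level can therefore not be read as a measure of methylation. FWA, MEA and PHE1, imprinted genes of the endosperm named outside the rule after their values were seen, had at most 4, 2 and 10 counts in a library. RMG1 (AT4G11170), likewise named outside the rule, had 18, 6 and 12 counts in replicates 1, 2 and 3, a mean of 0.496 ± 0.152 CPM.

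**Figure D4:**
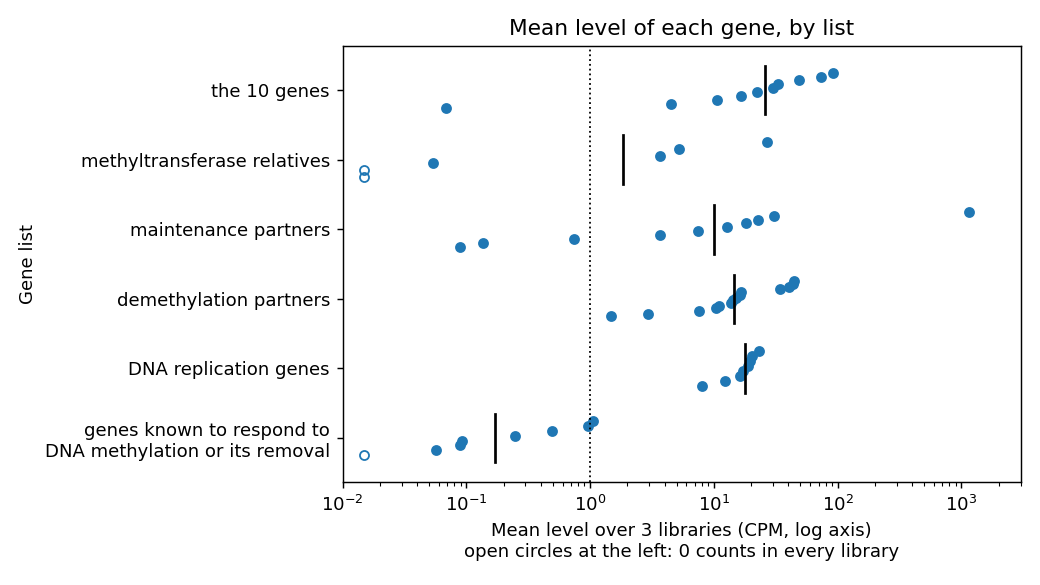
Mean CPM (log axis) of each gene in the 10 genes and in 5 lists of relatives, partners and responsive genes, with each list's median as a bar and 1 CPM dotted. All demethylation partners and replication genes lie right of 1 CPM, and 7 of the 8 responsive genes lie left of it.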

How the data were processed

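RNA was measured in 3 wild-type libraries. Unnormalized gene counts, a column for each library, were deposited by the authors. The submitters' processing notes name featureCounts, HISAT2, cutadapt, SAMtools 1.13, Bowtie2 2.4.5, deepTools 3.5.1 and the build TAIR10, with no role stated. The library kit was stranded, per the labels' protocols; strand setting and multi-mapping reads are not described. Members and lists were chosen with earlier results of these data known. CPM (TMM factors 0.989 to 1.01) and goodness-of-fit tests came from edgeR 4.0.16 (R 4.3.3), the tests on genes with a mean of at least 1 CPM. The tests were also run on simulated counts drawn from their own model. Those counts lack the even low counts of this table, so that run cannot vouch for the tests there. DESeq2 1.42.0 size factors were an alternative. No pair of libraries was identical, and 6197 genes varied beyond counting error. Names came from a RefSeq table of TAIR10.1, in which 32835 of 33602 identifiers were found; its positions served only to find which genes neighbour or overlap a member, and no coordinates are given. Levels per coding length were planned and not computed, and no sequences were used here. All 10 members are described, with, of each list, the 2 highest and the 2 lowest genes and any that varied beyond genes of its own level, and the genes next to a member.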

Additional observations from a re-analysis of the deposited data

How the results depend on the processing

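DESeq2 size factors, unscaled totals, totals without the rRNA genes and leaving out each replicate left 9 genes at 1 CPM or more, and moved the class sums by less than their SD. All log2 ratios kept their sign without each replicate. Of the recomputed levels of single genes, 57 moved by less than 1 SD and 3, of CMT2 and DML2, by more. Beyond counting error, 1203 genes and 1 member passed on halved counts, against 6197 and 4 as reported; leaving out a replicate gave 2964 to 3862 genes and 2 to 4 members. Beyond genes of the same level, 161 genes passed with the common dispersion, against 28 with the trend, and 6 (without replicate 3) to 29 with a replicate left out; members stayed at 0. The cause of these moves was not tested, apart from halving, which lowers the deviance by construction. The alternatives per coding length were not run. No paired analysis was possible because there is 1 RNA group. Low counts limit DRM1 and DML3 most.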

Other observations

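The genes next to the 10 in the RefSeq gene table ran from no count to 629.8 CPM, and some stood close to the member beside them. Of the genes in the count table, 0 overlapped a member by that table's gene spans. DME lay between AT5G04550, at 98.0 ± 3.78 CPM, and SIR, the sulfite reductase gene, at 629.8 ± 2.32 CPM. DML3, at 4.52 CPM, lay beside CCoAOMT1, a gene of lignin synthesis, at 362.5 ± 12.3 CPM, and beside a pseudogene (AT4G34065) with no count. DRM1, with 4 counts in all, lay between AT5G15360, with 1 count in all, and AT5G15390, at 17.3 ± 1.49 CPM. DRM2 lay between AT5G14610, at 21.7 ± 1.34 CPM, and the kinase gene SK13, at 63.9 ± 3.41 CPM. CMT3 lay between AT1G69760, at 38.5 ± 0.831 CPM, and ATHB13, a homeodomain factor gene, at 20.2 ± 1.03 CPM. ROS1, at 73.8 CPM, stood above AT2G36480, at 23.8 ± 1.69 CPM, and AT2G36500, at 2.15 ± 0.281 CPM. MET1, at 48.5 CPM, lay between the noncoding RNA gene AT5G49152, with 12, 0 and 8 counts, and AT5G49170, at 3.36 ± 0.560 CPM. CMT2, at 29.9 CPM, lay between AT4G19010, at 10.2 ± 0.603 CPM, and NLM1, at 9.21 ± 0.9503 CPM. DDM1 lay between AT5G66740, with 10, 8 and 12 counts, and a tRNA gene (AT5G66755) with no count. DML2, at 32.7 CPM, lay between EDA31, at 1.34 ± 0.478 CPM, and a tRNA gene (AT3G10015) with no count.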
